A study of Mus musculus with 23 samples.

Results

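The marker-positive control pools are the 4 of 12 libraries from control melanomas in which the raw counts of Siglech, Ly6d, Klk1 and Cox6a2, 4 genes that mark plasmacytoid dendritic cells (pDC), added up to 10 or more. The other 8 control pools, with sums under 10, are the marker-negative pools. The whole series holds 23 libraries, the further 11 being from PGE2-deficient melanomas. Each library is 1 pool of 10 sorted cells, amplified together by Smart-seq3, a full-length RNA sequencing method for very small inputs. The sets were chosen by the 4 marker genes, so the values of those genes are a description and were not tested.

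All cells came from wild-type C57BL/6 mice, collected 6 days after a subcutaneous injection of BRAFV600E melanoma cells. The control tumours grew from the Control version of that line, and the PGE2-deficient tumours from its Ptgs1/Ptgs2 KO version, which lacks both cyclooxygenase genes needed to make prostaglandin E2. The hosts themselves are wild type, so in both groups the host cells keep their own Ptgs1 and Ptgs2. Tumour suspensions were enriched for myeloid cells on a density gradient and living cells were sorted by surface protein (positive for CD45, MHC-II, CD11c and also for CD103, negative for CD11b), a gate for type 1 conventional dendritic cells (cDC1). Each group had 4 mice with up to 3 pools each. The labels call the pools of a mouse technical replicates, although each pool is a separate set of cells, so a p-value over pools measures the spread between pools of these 4 mice and not between many animals. Pools are named here by group letter, mouse and pool number, so that C3.1 is the pool numbered 1 of control mouse 3.

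Plasmacytoid dendritic cells share a progenitor network with conventional dendritic cells, but are built for another task. They sense viral nucleic acids through the endosomal receptors TLR7 and TLR9 and release large amounts of type I interferon. Their identity is held by the E-protein transcription factor TCF4 (E2-2), which binds E-box motifs and works against ID2, the E-protein inhibitor that conventional dendritic cells use. In mice they carry Siglec-H, BST2 and Ly6C on the surface and usually have little CD11c and MHC class II compared with conventional dendritic cells.

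All 4 rule genes are protein coding. In GRCm38 with GENCODE M21, Siglech (ENSMUSG00000051504), which encodes the surface lectin Siglec-H, spans bases 55768178 to 55778925 of the plus strand of chromosome 7. Klk1 (ENSMUSG00000063903), a secreted kallikrein peptidase, spans bases 44225360 to 44229618 of the plus strand of chromosome 7. Cox6a2 (ENSMUSG00000030785), a subunit of mitochondrial cytochrome c oxidase, spans bases 128205435 to 128206387 of the minus strand of chromosome 7. Ly6d (ENSMUSG00000034634), a small membrane-anchored protein that also marks early lymphoid precursors, spans bases 74762056 to 74763620 of the minus strand of chromosome 15. The 250 bases before the RefSeq start site (GRCm38.p6, plus strand) are shown for the 2 of 4 rule genes that had an entry, Siglech and Klk1, because these genes define the pools and TCF4 binds E-boxes. Capitals mark the E-box CANNTG, searched on both strands (the motif reads as the same pattern on both).
Siglech, chr7:55767934-55768183: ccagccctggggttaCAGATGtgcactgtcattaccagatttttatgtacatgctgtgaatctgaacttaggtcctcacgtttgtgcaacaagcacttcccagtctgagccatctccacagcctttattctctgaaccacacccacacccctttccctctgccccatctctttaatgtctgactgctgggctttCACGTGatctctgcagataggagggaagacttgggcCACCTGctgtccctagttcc
Klk1, chr7:44225110-44225359: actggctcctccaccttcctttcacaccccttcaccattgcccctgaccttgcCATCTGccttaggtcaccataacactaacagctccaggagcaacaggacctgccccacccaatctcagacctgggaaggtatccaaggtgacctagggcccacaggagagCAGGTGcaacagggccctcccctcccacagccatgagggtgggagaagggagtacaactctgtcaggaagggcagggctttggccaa

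The Siglech window holds 3 E-boxes, which lie 235, 56 and 20 bases before the start site. The Klk1 window holds 2, which lie 197 and 87 bases before it. A CANNTG match was present in 66.2% of 32817 such windows, so its presence here is common. The narrower form CACCTG, which reads CAGGTG on the opposite strand and which each window has once, was present in 17.2% of windows. These matches are letters in a window and were not tested as binding sites.

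The marker counts were concentrated in 2 mice. In pool C3.1 Siglech had 13 counts, Ly6d 2, Klk1 1 and Cox6a2 3, a sum of 19. In pool C3.3 the counts were 14, 15, 10 and 2 in the same order, a sum of 41. In pool C4.1 they were 3, 16, 0 and 8, a sum of 27. In pool C4.2 they were 10, 1, 0 and 1, a sum of 12. Siglech and Ly6d were thus detected in every positive pool but in unequal mixtures, with Ly6d ahead of Siglech in C3.3 and C4.1 and far behind it in C3.1 and C4.2. Cox6a2 was detected in all 4 positive pools and Klk1 in 2 of them. The 8 negative pools held 2 marker counts in all, 1 of Siglech in C1.3 and 1 of Siglech in C3.2, and the other 6 had none. The pool just inside the threshold of 10 had a sum of 12 and those just outside had 1.

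**Figure D1:**
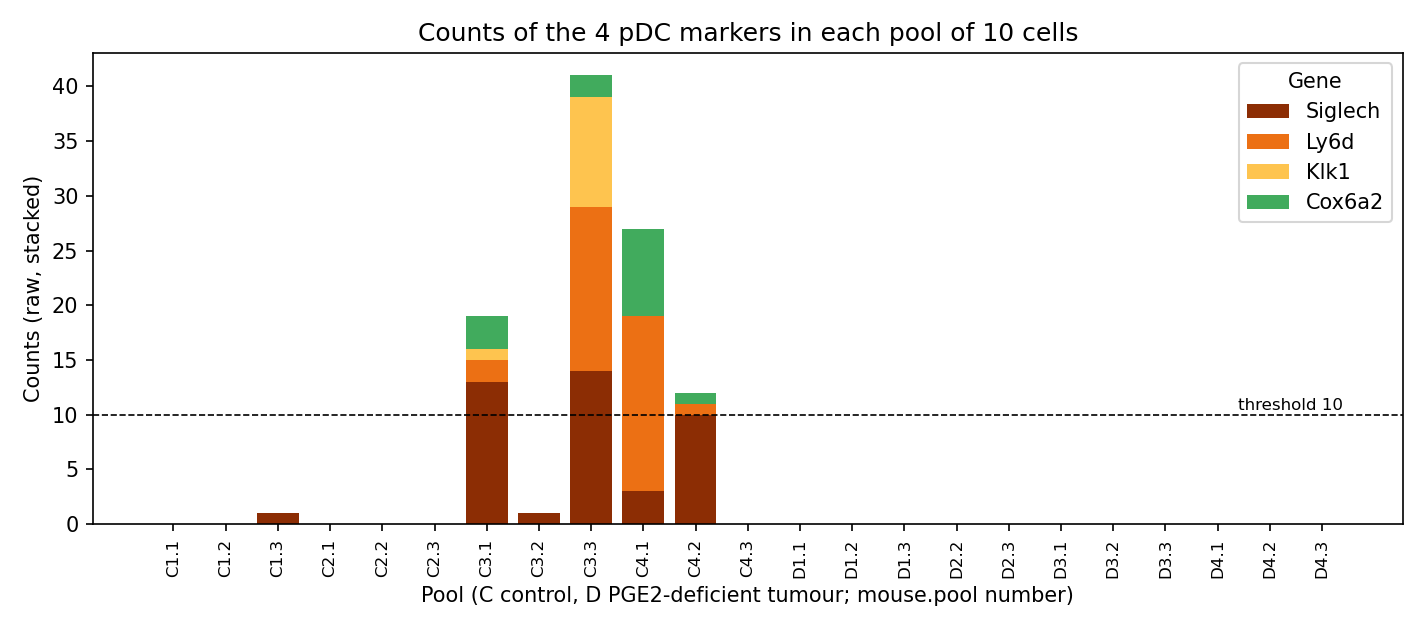
Raw counts (vertical axis) of Siglech, Ly6d, Klk1 and Cox6a2, stacked for each of the 23 pools (horizontal axis; C, control; D, PGE2-deficient; then mouse and pool number), with the threshold of 10 as a dashed line. The 4 pools above the line, C3.1, C3.3, C4.1 and C4.2, hold sums of 12 to 41, and every other pool holds 0 or 1.

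Mice 3 and 4 each gave 2 positive pools and 1 negative pool (C3.2 and C4.3), whereas mice 1 and 2 gave 3 negative pools each. The set is therefore partly confounded with the mouse: only mice 3 and 4 allow a comparison within an animal, and it rests on 4 pools against 2. Relative to depth, the 4 markers made up 7.43 counts per 10000 library counts in C3.1, 8.81 in C3.3, 4.69 in C4.1 and 2.17 in C4.2. In the 11 PGE2-deficient pools the 4 genes had 0 counts among 609675, which allows at most 0.0492 per 10000 (3 counts of the total, counting error only). In bulk pools like these, fewer cells of a type and less RNA per cell cannot be told apart.

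The sets overlapped in sequencing depth. Control pools held 25571 (C3.1) to 57523 (C4.1) counts, and both extremes were marker-positive. The mean total was 46242 ± 14577 (SD, n = 4) in positive and 44740 ± 8826 (SD, n = 8) in negative pools (exact two-sided permutation test over 495 assignments, p = 0.808). Genes detected were 6350 ± 1205 (n = 4) and 6091 ± 646 (n = 8, exact permutation p = 0.614). The mitochondrial share was 5.01% ± 0.587 and 5.44% ± 1.26 (exact permutation p = 0.560), and the share of the 50 most abundant genes 30.1% ± 2.82 and 31.6% ± 2.46 (exact permutation p = 0.366). After Benjamini-Hochberg adjustment over these 4 measures each exact permutation p was 0.808. Pools were reassigned freely over mice, so these tests take no account of the mouse. Every library was also thinned to 25571 counts. This left a marker sum of at least 3 in each positive pool and at most 1 in each negative pool. The lowest thinned positive sum, 3, lay under the threshold that defined the sets. At equal depth the rule therefore did not hold for every positive pool. The thinned sums come from the same marker counts that defined the sets, so their separation is a description and not a test.

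Genes of the labelled cell type were detected in both sets. Irf8, Clec9a, Batf3 and Itgae, defining cDC1 genes, had counts in all 12 control pools. Itgae is the gene of CD103, on which the cells were sorted, and Irf8 is also needed by pDC. Neither therefore tells cDC1 from pDC in these pools. Xcr1, the cDC1 chemokine receptor, had counts in 7 of the 12 pools and 0 in the positive pool C3.3.

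The question was which genes other than the 4 markers came with them. The 3657 genes with 20 or more counts over the 12 control pools were tested with edgeR's quasi-likelihood test, with the mouse as a term, so that positive pools were set against the negative pool of their own mouse. The sets were read from the same libraries, so each p measures association with marker content over these pools. One gene passed a Benjamini-Hochberg adjusted p of 0.05 as higher in positive pools, Rgs1 (1 of 3657, 0.0273%), and 0 genes (0%) passed as lower. At an unadjusted p under 0.05 in edgeR, 130 genes (3.55%) were higher and 79 (2.16%) lower. Without the mouse term, edgeR called 0 genes (0%) in either direction, with 89 (2.43%) higher and 105 (2.87%) lower at an unadjusted p under 0.05. Over all tested genes the median log2 fold change was 0.06 with and −0.00 without the mouse term, and 53.6% and 49.9% of genes had a positive value.

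Whole profiles did not sort by set: the median Spearman correlation across genes was 0.572 between 2 positive pools, 0.567 between 2 negative pools and 0.564 between a positive and a negative pool. These are descriptions across genes, which are not independent replicates, of pools from the same 4 mice.

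Tcf4, which encodes the factor that sets pDC identity, had the smallest edgeR p within mice among pDC genes outside the rule. It had 3 counts in C3.1, 30 in C3.3, 28 in C4.1 and 15 in C4.2. In the negative pools it ran from 1 to 19 counts with a median of 2, and 7 of those 8 pools held 6 or fewer. Within mice both positive pools of mouse 3 exceeded C3.2 (2 counts) and both positive pools of mouse 4 exceeded C4.3 (4 counts). Over all mice the sets overlapped. The negative pool C2.1 (19 counts) lay above C3.1 and C4.2, and the negative pool C2.3 (6 counts) above C3.1, also per 10000 library counts. The log2 fold change was 2.58 ± 0.75 (SE), with an unadjusted p of 0.0014 in edgeR that did not pass adjustment over all genes (adjusted p = 0.345). Without the mouse term it was 1.89 (edgeR adjusted p = 0.332). Pooled over libraries, Tcf4 made up 4.11 counts per 10000 in positive, 1.03 in negative and 0.476 in PGE2-deficient pools.

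Ly6c2, which encodes the Ly6C antigen carried by mouse pDC and also by monocytes, had 6 counts in C3.1, 10 in C3.3, 25 in C4.1 and 0 in C4.2. Only 2 negative pools had any, C2.1 with 6 and C3.2 with 1. The positive pool C4.2 had none, so the sets overlapped. Pool C4.1, the highest, also held 75 counts of 7 defining macrophage genes, against at most 3 in the other positive pools, and their part in this result was not tested. The log2 fold change was 4.10 ± 1.37 (SE; edgeR adjusted p = 0.562) within mice, and 3.32 (edgeR adjusted p = 0.319) without the mouse term. With 1 count in C3.2 and 0 in C4.3, the size of the within-mouse value is uncertain. Without the mouse term, Ly6c2 shared the smallest adjusted p of all tested genes with the pseudogene Rpl10-ps6, which was lower in positive pools (log2 fold change −1.52). Ly6c2 was also detected in 9 of 11 PGE2-deficient pools, with 50 counts in all, where the 4 rule genes had none.

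Bst2, the interferon-induced membrane protein tetherin recognised by pDC antibodies, was the 1 gene of the pDC list whose sets did not overlap. Per 10000 library counts it stood at 1.56 in C3.1, 4.73 in C3.3, 1.56 in C4.1 and 1.63 in C4.2, against 0 to 1.32 in negative pools (median 0.751). All 4 positive pools were above all 8 negative pools, as was so for 15 of 3657 tested genes (0.41%), and 11 genes (0.301%) were below in all 4. The log2 fold change was 1.26 within mice (edgeR adjusted p = 0.952) and 1.72 without the mouse term (edgeR adjusted p = 0.569). Bst2 is no marker of the sets across the series, since it had counts in all 11 PGE2-deficient pools (131 in all).

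**Figure D2:**
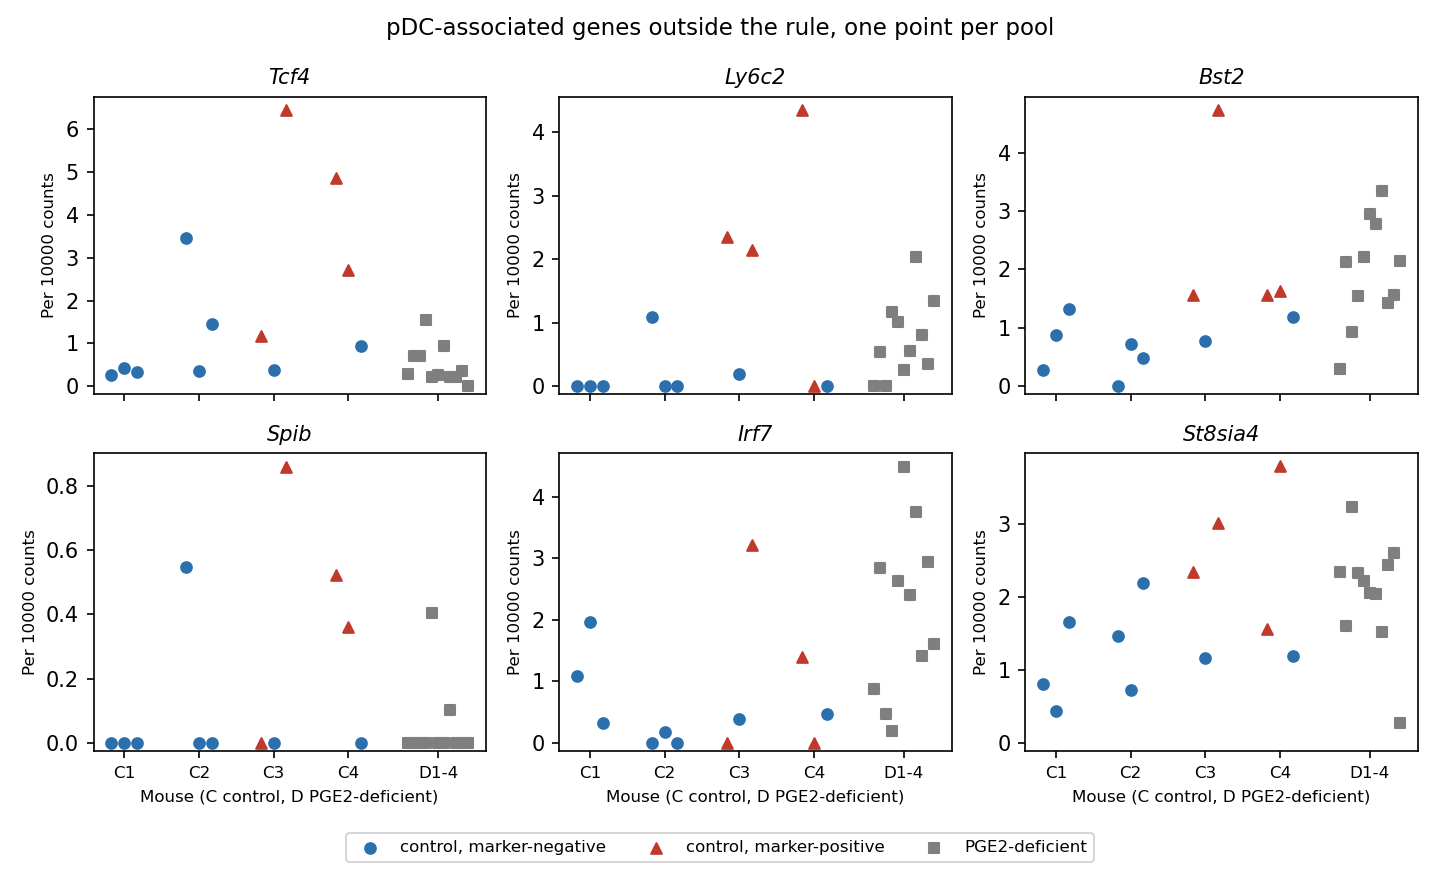
Counts per 10000 library counts (vertical axis) of Tcf4, Ly6c2, Bst2, Spib, Irf7 and St8sia4, 1 point per pool, by control mouse (C1 to C4) and for the PGE2-deficient mice together (D1-4). Triangles are marker-positive and circles marker-negative control pools. Bst2 separates the control sets, Tcf4 does so within mice 3 and 4 but not over all mice, and Irf7 and Bst2 are as high in PGE2-deficient pools as in positive ones.

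The remaining transcription factors of the pDC program were sparse. Spib, an ETS factor that works with TCF4, had 0 counts in C3.1, 4 in C3.3, 3 in C4.1 and 2 in C4.2, against 3 in C2.1 and 0 in the other 7 negative pools. Runx2, a RUNX factor that pDC use to leave the bone marrow, had 4 counts in each positive pool of mouse 3 and 0 in those of mouse 4, and up to 7 in a negative pool (C2.1). Irf7, the interferon regulatory factor behind the pDC interferon burst and itself interferon-induced, had 0, 15, 8 and 0 counts in C3.1, C3.3, C4.1 and C4.2, and 0 to 9 in negative pools. Irf7 thus overlapped fully between the sets, and it had 150 counts over the 11 PGE2-deficient pools.

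Among pDC surface and endosomal genes, Ccr9, a chemokine receptor of mature pDC, had 1, 3, 0 and 3 counts in the positive pools and none in any negative pool. Ctsl, the lysosomal protease cathepsin L, had 1, 7, 6 and 2 counts in C3.1, C3.3, C4.1 and C4.2, against 3 counts in all 8 negative pools together and 3 in the 11 PGE2-deficient pools. Atp1b1, a sodium pump subunit, had 3 counts in C3.3, 3 in C4.1 and none in any other of the 23 pools. The nucleic acid sensors themselves were barely covered: Tlr7 had 2 counts in positive and 0 in negative pools, and Tlr9 0 and 4. At these counts a difference was not detectable for Tlr7 or Tlr9, and none of these 5 genes had enough counts to be tested. Ctsl and Atp1b1 were singled out after their values were seen.

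Other genes of the pDC list were better covered. St8sia4, a polysialyltransferase, had 6, 14, 9 and 21 counts in C3.1, C3.3, C4.1 and C4.2, and 2 to 9 in negative pools, so the sets overlapped. Plac8, a gene that is abundant in pDC but not restricted to them, had 27 to 53 counts in positive and 1 to 71 in negative pools, a wide overlap.

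The whole list of pDC genes beyond the 4 markers held 48 genes, of which 42 were in the table and 15 had enough counts to be tested. In edgeR, 0 of the 15 passed adjustment, 2 were higher at an unadjusted p under 0.05 (Tcf4 and Ly6c2) and 0 lower. Of all tested genes 3.55% were higher and 2.16% lower at that p, shares that stand beside the counts of every list below. A positive fold change was found for 11 of 15, beside 53.6% of all tested genes, with a median log2 fold change of 0.79 beside 0.06. This lean was not particular to the pDC list. A positive value was also found for 16 of 20 tested maturation genes (median 1.28) and 10 of 13 interferon response genes (1.26). It was found for 7 of 8 macrophage and monocyte genes (3.70), but for 7 of 18 cDC1 and 3 of 12 MHC class II genes. Without the mouse term 6 of the 15 pDC genes were higher at an unadjusted p under 0.05 in edgeR and 0 lower, beside 2.43% and 2.87% of all tested genes. The median was then 1.09. Of the 27 list genes in the table with too few counts, 23 had any count in control pools, and 18 of these (78.3%) had a higher pooled rate in positive than in negative pools. The same held for 45.6% of the 8740 genes with 1 to 19 control counts. Some of the 18 rest on very few counts. Pacsin1 and Pltp had 1 count in positive and 0 in negative pools, Rpgrip1 and Gpm6b had 1 in each set, and Klra17 had its 3 positive counts in C3.3 alone. Of the list genes not tested, 5 had counts in positive pools only and 3 in negative pools only. Pacsin1 and Pltp, with 1 count each, are among the 5. The share of all genes found in 1 set only was not computed, so no result is drawn from these numbers. Pooled rates also include mice 1 and 2, which gave no positive pool.

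Summed over the list, pDC genes made up 32.1 counts per 10000 in C3.1, 47.7 in C3.3, 37.9 in C4.1 and 31.44 in C4.2. The negative pools had 13.4 to 31.37 with a median of 18.7. The lowest positive pool was thus only just above the highest negative pools, C2.1 and C4.3, and the PGE2-deficient pools spanned 10.6 to 40.0. Bst2, Irf7 and Plac8, which respond to interferon or are shared with other myeloid cells, are part of this sum.

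The negative pool C2.1 stood apart in some pDC genes, which were singled out after their values were seen. With 0 counts of the 4 rule genes among 54832, it held 19 counts of Tcf4, 7 of Runx2, 6 of Ly6c2 and 3 of Spib, the highest of the negative pools for each of these 4. Other genes of the list did not follow, since Irf7, Bst2 and Ccr9 had 0 counts there. The set of this pool therefore rests on the choice of the 4 markers.

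Rgs1, the called gene, encodes a regulator of G-protein signalling that dampens chemokine receptor responses in leukocytes. It had 4 counts in C3.1 and 29 in C3.3 beside 0 in their negative pool C3.2, and 61 in C4.1 and 111 in C4.2 beside 2 in C4.3. In the 6 negative pools of mice 1 and 2 it had 4 to 94 counts, as high as in the positive pools. The log2 fold change was 5.32 ± 0.92 (SE; edgeR adjusted p = 0.00400) within mice and 0.29 (edgeR adjusted p = 0.983) without the mouse term. The call rests on the 2 low negative pools: leaving out C3.2 gave an edgeR adjusted p of 0.740 and leaving out C4.3 one of 0.922.

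Of the genes higher in positive pools, the 9 next in order of edgeR p were not called, and several had the same low values in C3.2 and C4.3. Ccr7, the receptor that guides mature dendritic cells to lymph nodes, had 0, 24, 28 and 33 counts in C3.1, C3.3, C4.1 and C4.2, and 0 in both C3.2 and C4.3 (edgeR adjusted p = 0.222). In mice 1 and 2 negative pools held up to 32 counts of it. Bcl2a1d, a survival gene of the BCL2 family, had 13, 49, 50 and 54 counts in the positive pools and 5 and 12 in C3.2 and C4.3, with a log2 fold change of 2.26 (edgeR adjusted p = 0.222), but reached 72 counts in the negative pool C2.3. Fabp5, a fatty acid binding protein, had 4, 35, 3 and 18 counts in the positive pools and 0 in C3.2 and C4.3, and up to 27 in mice 1 and 2. For Ccr7 and Fabp5 both within-mouse negative pools are at 0, so the fitted fold change has no stable size and is not given. The other 6 were Rgs10, Fis1, Serpinb9, Tbc1d4, Bcl2a1b and Fam107b, and of these Fam107b also had non-overlapping sets. Its counts were 5, 8, 9 and 10 in positive and 0 to 4 in negative pools (log2 fold change 3.72, edgeR adjusted p = 0.288).

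**Figure D3:**
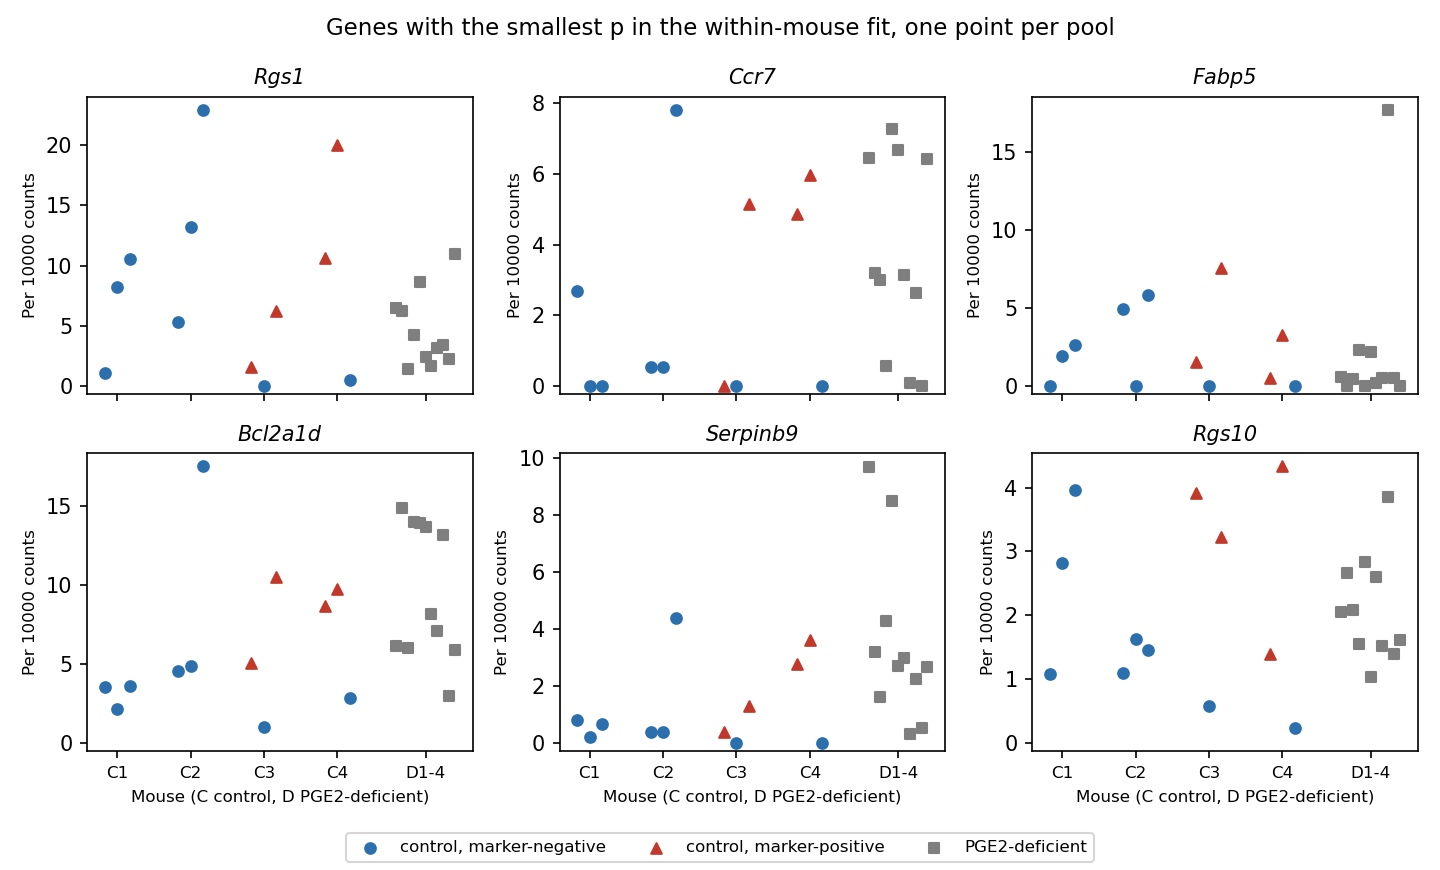
Counts per 10000 library counts (vertical axis) of Rgs1, Ccr7, Fabp5, Bcl2a1d, Serpinb9 and Rgs10, 1 point per pool, by control mouse (C1 to C4) and for the PGE2-deficient mice together (D1-4). In mice 3 and 4 the negative pool (circle) lies at or below the positive pools (triangles) for all 6 genes, and for Rgs1, Ccr7, Bcl2a1d and Serpinb9 the highest control pool is the negative pool C2.3.

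With pseudogenes and predicted genes (Gm names) left out, the 10 genes lower in positive pools with the smallest edgeR p were Scaf11, Gng10, Rpl24, Slc25a20, Zfand5, Gmcl1, Fcgr2b, Ist1, Serf2 and Uqcr10, and none was called. Fcgr2b, the inhibitory IgG receptor, had 2, 0, 15 and 5 counts in positive pools and 18 and 14 in C3.2 and C4.3. Gng10, a G-protein subunit, had 14, 13, 7 and 15 counts in positive pools and 41 and 25 in the same 2 negative pools. In mice 1 and 2 Fcgr2b had 4 to 8 counts and Gng10 7 to 29, which per 10000 library counts lay within the range of the positive pools.

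One gene with 10 or more counts was found in at least 2 positive pools and in none of the negative pools. This was Nelfb, a subunit of the negative elongation factor that pauses RNA polymerase II, with 6, 2, 2 and 2 counts in C3.1, C3.3, C4.1 and C4.2. It also had 15 counts in 6 of the PGE2-deficient pools. It was therefore not limited to the positive pools in the whole series. The number of genes with 10 or more counts was not set beside it. Nor was the number of such genes absent from all positive pools. Nelfb is therefore named as a description only.

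**Figure D4:**
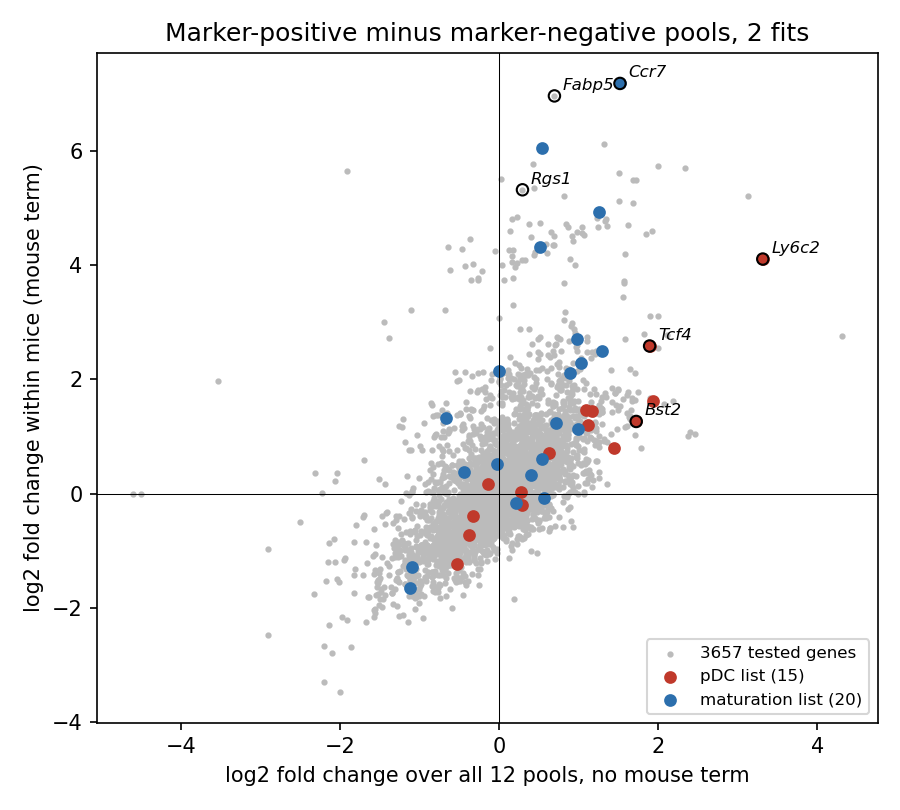
Log2 fold change of positive over negative pools for the 3657 tested genes (points) in the fit with a mouse term (vertical axis) against that without it (horizontal axis), with the 15 tested pDC genes in red and the 20 tested maturation genes in blue; 6 genes are ringed and named. Tcf4, Ly6c2 and Bst2 are well above 0 on both axes, whereas Rgs1 and Fabp5 are high on the vertical axis only.

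No cDC1 gene was called. Of 18 tested cDC1 genes edgeR gave 0 past adjustment, with 1 higher (Tlr3) and 0 lower at an unadjusted p under 0.05, and the median log2 fold change was −0.13. The summed cDC1 list spanned 60.8 to 81.3 counts per 10000 in positive and 41.6 to 88.5 in negative pools. Irf8, the factor that both cDC1 and pDC need, had 21, 34, 31 and 30 counts in the positive pools and 18 to 65 in the negative pools. Id2, the inhibitor of TCF4, had 20, 63, 20 and 58 counts in positive and 12 to 75 in negative pools, so the sets overlapped in the inhibitor as well. Batf3, the cDC1 factor that partners IRF8, had 1, 5, 3 and 6 counts in positive and 1 to 13 in negative pools (log2 fold change −1.38, edgeR adjusted p = 0.874).

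MHC class II genes, which display antigen to CD4 T cells, had a positive fold change in 3 of 12 cases, beside 53.6% of all tested genes. Of 12 MHC class II genes, 0 were called in edgeR, 3 were lower at an unadjusted p under 0.05 (H2-Aa, H2-Ab1 and Cd74) and 0 higher. Of all tested genes 2.16% were lower and 3.55% higher at that p. The median log2 fold change of the class II genes was −0.52, or −0.28 without the mouse term. The class II sum spanned 192 to 239 counts per 10000 in positive and 193 to 330 in negative pools, a wide overlap in which the 2 within-mouse negative pools, at 299 and 330, were among the highest. For MHC class I, 15 genes were tested, 0 called, 1 higher and 0 lower at an unadjusted p under 0.05 in edgeR, with a median of 0.24.

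Dendritic cell maturation genes, the program that includes Ccr7, gave 5 of 20 tested genes higher at an unadjusted p under 0.05 in edgeR (Ccr7, Cacnb3, Serpinb6b, Tmem123 and Traf1), 0 lower and 0 called, with a median log2 fold change of 1.28. Of all tested genes 3.55% were higher at that p. Without the mouse term 2 of 20 were higher, beside 2.43% of all tested genes, and the median was 0.54. The summed list stood at 7.04 counts per 10000 in C3.1, 49.0 in C3.3, 43.1 in C4.1 and 45.9 in C4.2, against 9.35 to 57.5 in negative pools. The positive pool C3.1 was the lowest of all 12 and the negative pool C2.3 the highest, so the maturation sums did not order the pools by set. The part of maturation in the marker sets was not tested beyond the fit with this list as a covariate, in which edgeR called 3 genes, Rgs1, C1qb and C1qc.

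Programs tied to pDC function gave few genes at an unadjusted p under 0.05 in edgeR. Of 35 tested genes of the secretory pathway of the endoplasmic reticulum, which pDC hold in large amount, 0 were higher or lower at an unadjusted p under 0.05 in edgeR, and the median log2 fold change was 0.07. Of 10 tested genes of TLR7 and TLR9 sensing, likewise 0 were higher or lower. Their median was 0.66, and 8 of 10 had a positive fold change. Of 13 type I interferon response genes, a list that includes Bst2 and Irf7, 1 was higher (Ifi27l2a) and 0 lower, with a median of 1.26. A positive fold change was found for 10 of 13, beside 53.6% of all tested genes. The interferon sum spanned 8.49 to 36.8 counts per 10000 in positive and 5.61 to 33.7 in negative pools. The PGE2-deficient pools, which had no marker counts, had 22.9 to 69.6.

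Markers of other cells were unevenly spread over the pools. For cDC2, 1 of 10 tested genes was higher at an unadjusted p under 0.05 in edgeR (Clec10a, a lectin of cDC2 and macrophages), 0 lower and 0 called, with a median of 0.87. Without the mouse term 3 were higher and 0 lower, beside 2.43% and 2.87% of all tested genes. A positive fold change was then found for 9 of 10 (median 0.72), beside 49.9% of all tested genes. The cDC2 sum was 15.7 to 25.6 counts per 10000 in positive and 4.62 to 21.1 in negative pools, so all 4 positive pools lay above every negative pool but C4.3. The part of cDC2 genes in the other differences was not tested. Macrophage and monocyte genes gave 2 of 8 tested genes higher at an unadjusted p under 0.05 in edgeR (Ly6c2 and C1qb), 0 lower and 0 called, with a median of 3.70. Their sum was 50.8 in C4.1, 3.44 to 6.26 in the other 3 positive pools and 2.61 to 27.4 in negative pools. Of 7 defining macrophage genes, the counts summed to 75 in C4.1, 49 in the negative pool C2.2 and at most 3 in the other 10 control pools. T cell receptor and CD3 genes had 11 counts in the negative pool C1.2 and 0 in the other 11. Il7r, the interleukin 7 receptor and the 1 tested gene of the T cell list, had 3, 4, 8 and 4 counts in the positive pools and 0 to 13 in negative pools (edgeR unadjusted p = 0.0100, adjusted p = 0.764). The B and plasma cell list had up to 1.50 counts per 10000 in positive and 0.776 in negative pools, melanoma genes up to 0.215 and 0.776, and the neutrophil list had no gene in the table. Without the 3 pools that had macrophage or T cell counts (C1.2, C2.2 and C4.1), edgeR called 2 genes as higher, Rgs1 and Fabp5.

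Among the remaining lists, edgeR called 0 genes. The shares of all tested genes higher and lower at an unadjusted p under 0.05 in edgeR were 3.55% and 2.16%. At an unadjusted p under 0.05 in edgeR, genes of transitional dendritic cells and precursors had 2 of 10 higher (Tcf4 and Ly6c2, which the pDC list also holds) and 0 lower (median −0.09). Genes common to conventional dendritic cells had 2 of 13 higher (Ccr7 and Clec10a) and 0 lower (median −0.16). The 2 tested NK cell genes had 0 either way (median −0.60), as had the 1 tested B cell gene (0.55). Prostaglandin E2 receptors and cyclic AMP targets had 1 of 6 higher and 0 lower (median 0.10), and cell cycle genes 0 of 8 either way (median 0.67). Genes of dissociation stress had 0 of 15 either way (median −0.18), and genes of mitochondrial DNA 0 of 13 higher and 1 lower (median −0.19).

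**Figure D5:**
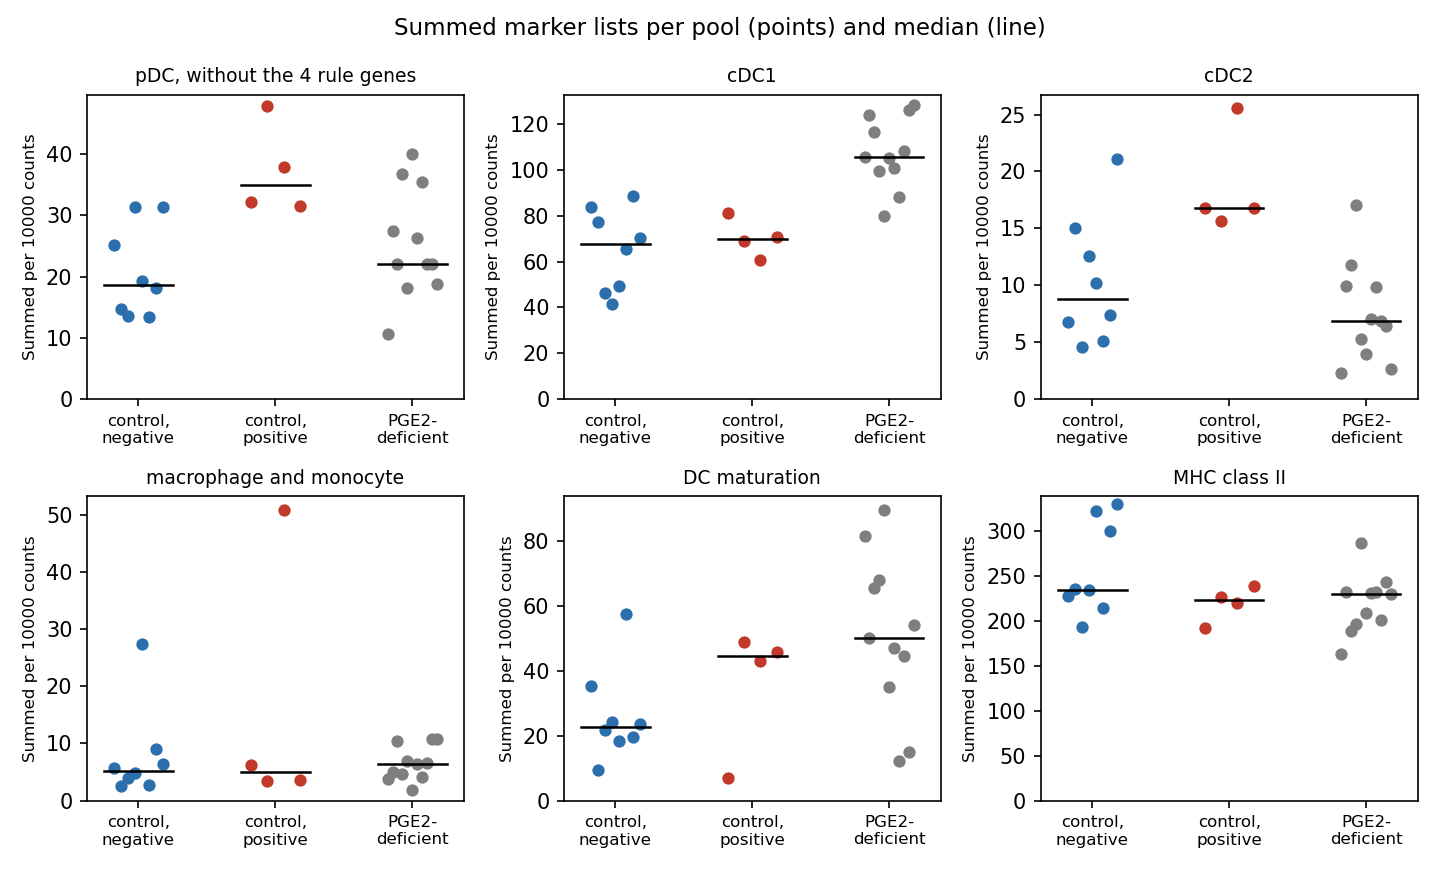
Summed counts per 10000 library counts (vertical axis) of 6 marker lists in the 8 negative control, 4 positive control and 11 PGE2-deficient pools (points), with the median as a line. The pDC list without the 4 rule genes spans 31.44 to 47.7 in positive, 13.4 to 31.37 in negative and 10.6 to 40.0 in PGE2-deficient pools. The cDC2 sum spans 15.7 to 25.6 in positive and 4.62 to 21.1 in negative pools (median 8.77). The cDC1, maturation and MHC class II sums overlap, and the macrophage sum is high in pool C4.1 only among positive pools.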

How the data were processed

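The authors deposited counts, raw and in whole numbers. STAR 2.5.4b and GRCm38 (mm10) are named in the submitters' processing notes. Not given in the sources used here are the counting program, its annotation and whether molecular identifiers entered, so limits for counts of 0 cover counting error only. Of 13572 genes in the table, 13556 identifiers matched GENCODE M21. Pools are separate libraries of a mouse, so the mouse was a term in the fit (pools of the same animal, per the labels). The median correlation of their deviations was −0.103, against −0.0905 between mice.

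Levels are counts per 10000 library counts. Genes with 20 or more counts over 12 control pools (3657 genes, 89.6% of counts, without the 4 rule genes) entered edgeR 4.0.16 in R 4.3.3 (quasi-likelihood F-test, TMM, two-sided, Benjamini-Hochberg over all tested genes, threshold 0.05, 7 residual degrees of freedom, biological coefficient of variation 35.6%). limma 3.58.1 and DESeq2 1.42.0 served alternatives. The fit was tested on simulated data. Library measures were tested by exact permutation. Members and gene lists were chosen with earlier results of these data known. Named genes were those called, the next by p up to 10 per direction, those with 10 or more counts and 0 in every negative pool, members of the pDC list, a panel, and up to 3 per other list, without pseudogenes and predicted genes among those by p. A gene of the pDC list is not reported here.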

Additional observations from a re-analysis of the deposited data

Results flagged for a closer look

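In 16 of 102 groups of 4 or 8 pools checked, 1 pool stood far from the rest by Dixon's test. Its rate of about 1 in 20 groups by chance holds for normally distributed values and not for small counts. A lone pool with counts is always flagged, as for Gmcl1 among positive pools. The genes checked were those named here, some of them for their values, so the 16 cannot be set against that rate. All values are counts per 10000 library counts, each with its nearest other pool. Among negative pools, C2.1 was highest in Tcf4 at 3.47 (next 1.46) and in Ly6c2 at 1.09 (next 0.194). Pool C2.3 was highest among negative pools in 4 genes of the within-mouse comparison: Bcl2a1d at 17.5 (next 4.90), Bcl2a1b at 21.9 (next 7.81), Ccr7 at 7.80 (next 2.70) and Serpinb9 at 4.39 (next 0.811). Pool C4.3 was highest among negative pools in Gmcl1 at 2.37 (next 0.776), Batf3 at 3.08 (next 1.45) and Il1b at 39.3 (next 19.6). Pool C3.2 was highest in Zbtb46 at 1.55 (next 0.545) and C1.2 in Isg15 at 1.96 (next 0.487).

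Among positive pools, C3.3 was highest in Bst2 at 4.73 (next 1.63) and in Gmcl1 at 0.430 (next 0). Pool C4.2 was highest in Itgae at 2.89 (next 1.29), and C4.1, the pool with macrophage counts, in Ctsb at 8.17 (next 2.36). Pool C3.1, the smallest library, was lowest in H2-Aa at 48.5 (next 57.8).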

How the results depend on the processing

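The number of genes higher in marker-positive control pools was 1 in the main fit. It was also 1 with DESeq2 size factors, upper-quartile scaling, the library total as covariate and mice 3 and 4 alone. With a marker sum of 5 or more the sets were the same, so the number was 1 again. It was 0 with no replicate block (the fit without the mouse term), robust dispersion, DESeq2's Wald test, limma-voom with the mouse as random effect, a total of 60 or more counts, filterByExpr, a marker sum of 20 or more, the marker rate as a continuous term, libraries thinned to the smallest total, and Siglech alone of 10 or more. It was 10 with no count filter (12397 genes tested), 2 without pools with macrophage or T cell counts, and 3 with the maturation list as covariate. Leaving out 1 pool or 1 mouse gave 0 to 2: 0 without C3.2, C4.3, mouse 3 or mouse 4, and 2 without C2.3. The count of lower genes was 0 in every alternative run. The alternatives on mice 3 and 4 alone, macrophage or T cell counts, the maturation covariate and Siglech alone were chosen after seeing the data. The cause of these changes was not tested.

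Rgs1 was called in 20 of 34 alternatives, but these are not independent checks. A marker sum of 5 or more gave the same sets, and so the same result as the main fit. Leaving out some or all pools of the mice without a positive pool kept the pools of the within-mouse comparison unchanged. Those alternatives therefore test the Rgs1 call little. The same limit holds for the tallies of Tcf4, Bst2 and Ly6c2. Tcf4 was higher in 34 of 34 (log2 1.07 to 3.36) and Bst2 in 33 of 33 (0.42 to 2.12), without a call in any. Ly6c2 was higher in 31 of 32 (−0.33 to 6.35), also without a call. With 25571 to 57523 counts per pool, genes under 20 counts in all were not tested.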

Other observations

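The genes whose sets did not overlap differed in class between the directions, which was noticed after their values were seen. All 15 genes above in every positive pool were protein coding, near the share of 86.4% among all tested genes. Among the 15 were Cd164 (a sialomucin; log2 fold change 1.63 within mice and 1.71 without the mouse term), Eif4h (a translation initiation factor; 1.39 and 1.25) and Psma2 (a proteasome subunit; 1.01 and 0.71). None of them was called in edgeR. Of the 11 genes below in every positive pool, 7 were pseudogenes and 4 protein coding, mt-Atp6, Mrpl52, Rplp2 and the predicted gene Gm5148. Pseudogenes made up 10.8% of all tested genes. Reads of processed pseudogenes can be shared with their parent genes, so these 7 are uncertain.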
